A study of Mus musculus with 23 samples.

Results

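The exchangeable apolipoproteins made by liver are described here as 10 genes, Apoa1, Apoa2, Apoa5, Apoc1, Apoc2, Apoc3, Apoc4, Apoe, Apoh and Apom, picked by gene name from 26522 genes listed in either of 2 deposited tables. All 10 were listed for both sexes and all 10 were tested in each of 5 comparisons. In LKO livers, which carry a hepatic ablation of Cpt1a, no member differed from control at an adjusted p under 0.05 in males, in females or averaged over the sexes. Few genes of any kind did: 0.00724%, 1.42% and 0.365% of all tested genes in the same order. In males the estimates of all 10 lay below 0, against 47.9% of all tested genes, with a median log2 fold change of -0.30. In females 8 of 10 lay below 0, against 48.9%. Apoe, the most abundant member, differed least from control in males, and Apoc3, Apom and Apoh had the lowest p-values averaged over sexes.

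Exchangeable apolipoproteins are secreted proteins that sit on the surface of lipoprotein particles and can pass from one particle to another, unlike apolipoprotein B, which stays with its particle from assembly to clearance. Hepatocytes are a main source of them. They stabilise high density lipoprotein (HDL), switch lipoprotein lipase on or off on triglyceride-rich particles, and serve as ligands by which the liver takes remnants up again. Most share a fold of amphipathic helices, whereas the product of Apom is a lipocalin and that of Apoh, beta-2-glycoprotein I, is a phospholipid-binding plasma glycoprotein.

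Bulk RNA from 23 livers was sequenced after poly-A selection. There were 5 B100-Control males (replicates 1, 2, 3, 4 and 6), 6 B100-LKO males, 6 B100-Control females and 6 B100-LKO females. All of them, controls included, carried the B100 label, had been WD-fed for 16 weeks and were fed at necropsy; the labels expand neither B100 nor WD, and the strain, the age and the means of hepatic ablation are not given in the sources used here. The labels number the livers without saying how animals were assigned. The p-values weigh group differences against the variation between these livers only. Total counts per liver ran from 14224665 to 19626662, and control male replicate 4 had the lowest total and the lowest TMM scaling factor, 0.870. Cpt1a, the liver carnitine palmitoyltransferase that admits long-chain fatty acids to mitochondria, stood at 303 to 431 CPM (counts scaled to effective library size, with TMM factors within a sex) in control males and at 42.2 to 96.8 in LKO males. In females it stood at 285 to 431 CPM in controls and at 61.8 to 86.3 in LKO livers, so every genotype label was borne out by the targeted gene. All 8 hepatocyte markers were detected in each group, with a summed level of 60264 to 104269 CPM.

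The genes lie at 5 places in the genome, with positions as in the deposited tables, taken as mm39. On chromosome 9, Apoa1 (chr9:46139878-46141764, plus strand), Apoc3 (chr9:46144231-46146934, minus strand) and Apoa5 (chr9:46179931-46183217, plus strand) form a cluster of 43.3 kb together with Apoa4. On chromosome 7, Apoc2 (chr7:19405504-19411866), Apoc4 (chr7:19412008-19415404), Apoc1 (chr7:19423406-19426585) and Apoe (chr7:19430034-19433113) span 27.6 kb, all on the minus strand. Apoa2 lies at chr1:171052623-171053948 (plus strand), Apoh at chr11:108234180-108305222 (plus strand) and Apom at chr17:35347973-35351026 (minus strand).

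Levels of different genes were compared per length, as FPKM from the deposited tables. The order was Apoe, Apoa2, Apoa1, Apoc1, Apoc3, Apoh, Apoa5, Apoc4, Apom, Apoc2 in all 4 groups. The place of Apoc2 rests on an uncertain reading, as given below. Apoe, the ligand for remnant uptake by the LDL receptor family, stood at 24870.5 ± 3199 FPKM in control males (SD, n = 5), and ranked first of all genes in every male liver and first or second in every female liver. Apoa2 and Apoa1, the major HDL proteins, stood at 14570 ± 2017 and 10153 ± 2059 FPKM in the same livers and overlapped each other. Apoc1 was at 4870 ± 1130, Apoc3 at 2240 ± 475 and Apoh at 1177 ± 256 FPKM. Apoa5, a scarce activator of triglyceride clearance, was at 655 ± 129, Apoc4 at 290 ± 53.3 and Apom, the HDL carrier of sphingosine-1-phosphate, at 142 ± 63.3 FPKM. Neighbours in this order had ranges that did not overlap, except Apoa2 with Apoa1 in control males and LKO females, Apoa1 with Apoc1 and Apoc3 with Apoh in LKO females, and Apoc4 with Apom in every group but LKO males. Within the LKO males, no pair of neighbours overlapped.

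**Figure D1:**
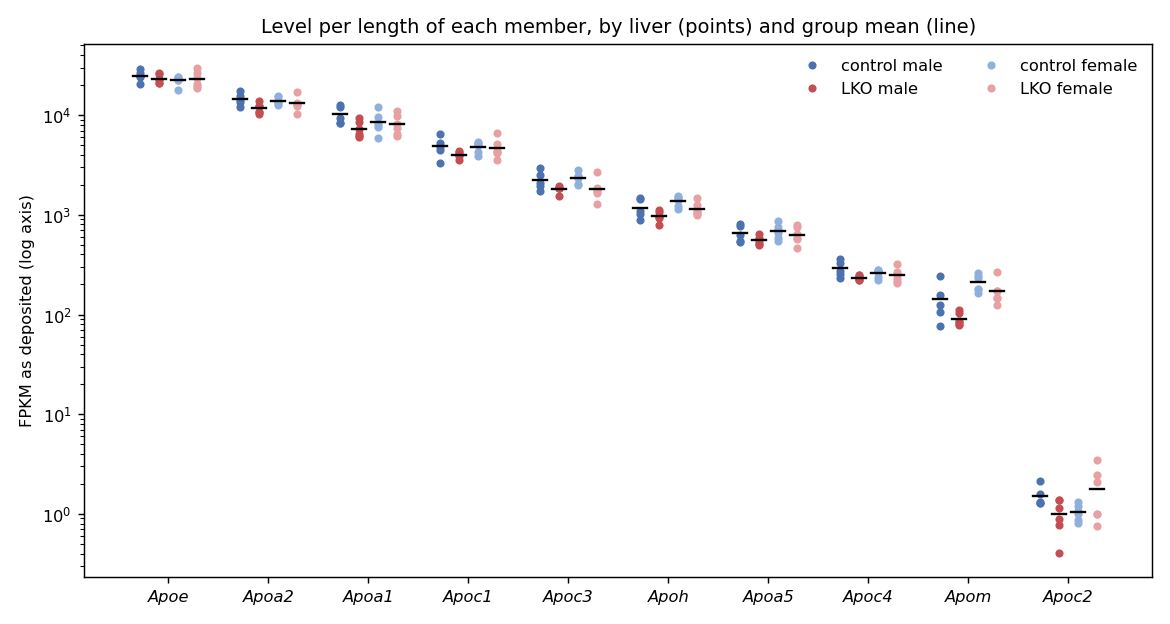
FPKM as deposited (log axis) of the 10 members in each liver (points, coloured by group) with the group mean (line). The order of the means is the same in the 4 groups, from Apoe at 24870.5 FPKM in control males down to Apoc2, listed at 1.52 FPKM. The Apoc2 level is uncertain, because how reads in exons shared with another gene were counted is not given.

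Apoc2, which encodes the cofactor that lipoprotein lipase requires, was listed at 1.52 ± 0.37 FPKM in control males (SD, n = 5), on 5 to 48 counts per liver over all 23. Whether this listed level lies above, at or below that of its mRNA cannot be told. In the GENCODE M21 annotation (GRCm38), 646 of its 813 exonic bases, 79.5%, are also exonic in a gene on the same strand named Gm44805 there and Apoc2l in the tables. How reads in shared exons were counted is not given in the sources used here, so each Apoc2 value below is uncertain. Apoc4 shares 119 of 2537 bases with that gene. For Apoa5, 524 of 2522 bases overlap a gene on the opposite strand, and the strand setting of the counting is not given either.

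Together the 10 genes took 8.28% ± 0.67 of all counts in control males (SD, n = 5), 7.62% ± 0.45 in LKO males (n = 6), 7.52% ± 0.66 in control females (n = 6) and 7.66% ± 1.02 in LKO females (n = 6). Apoe alone took 5.26% ± 0.43, 5.16% ± 0.46, 4.69% ± 0.37 and 4.97% ± 0.79 in the same order. Without Apoe the share was 3.02% ± 0.30 in control males and 2.46% ± 0.15 in LKO males, against 2.83% ± 0.33 and 2.70% ± 0.35 in the female groups. These sums are descriptions and were not tested.

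Whether loss of hepatic Cpt1a alters apolipoprotein mRNA was asked first in males. Calls required an adjusted p (Benjamini-Hochberg, across the 13805 genes of the fit) under 0.05 in edgeR's quasi-likelihood test. No member was called, and neither was almost any other gene: 0.00724% of tested genes were called, and the single one was Cpt1a. All 10 members had estimates below 0, against 47.9% of all tested genes, with a median log2 fold change of -0.30 against 0.01 over all genes. At an unadjusted p under 0.05, 5 of 10 were lower, against 7.22% of all genes. Without Apoc2, whose values are uncertain, 9 of 9 lay below 0. The members varied together between livers, as described below, so these counts are not of independent observations. No member had groups that did not overlap, which 1.1% of all genes showed in this direction. In bulk tissue, fewer cells of a type and less RNA per cell cannot be told apart.

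Among the HDL proteins, Apoa1 is the main structural protein and the activator of LCAT. Its level in control males was 11810, 10582, 10575, 14907 and 15852 CPM in replicates 1, 2, 3, 4 and 6, and in LKO males the lowest was 7644, the median 8557 and the highest 11914. The ranges overlap, and 4 of 6 LKO livers lay below every control. The LKO level was 72.3% of control (95% interval 57.3 to 91.4%), or -0.47 on the log2 scale (SE 0.16; edgeR adjusted p = 0.284). Apoa2 stood at 7474, 7773, 6647, 8445 and 9412 CPM in the 5 control males and at 5618, 6321 and 7596 (lowest, median, highest) in LKO males. All 6 LKO livers lay below the control median, at 80.7% of control (interval 67.8 to 96.1%; edgeR adjusted p = 0.316). Apom read 130, 79.7, 110, 246 and 163 CPM in control males and 80.9, 88.4 and 114 in LKO males. Its estimate was the furthest from 0 of the 10, 64.1% of control (interval 45.8 to 89.8%; edgeR adjusted p = 0.302), and it leaned on 1 liver: without control male replicate 4 the log2 fold change went from -0.64 to -0.37.

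Of the members that act on lipoprotein lipase, Apoc3 is an inhibitor that also slows remnant uptake. It stood at 2026, 2142, 1811, 2971 and 2582 CPM in control males and at 1592, 1918 and 2002 in LKO males, 81.6% of control (interval 67.6 to 98.5%; edgeR adjusted p = 0.367). All 6 LKO livers were below the control median, but 5 of them were above the lowest control. Apoc1, which also restrains lipase action and remnant uptake, stood at 82.7% of control (interval 67.4 to 101.6%; edgeR adjusted p = 0.441). Apoa5 stood at 85.6% (interval 71.1 to 103.1%; adjusted p = 0.485). Apoc4, a low-abundance member of the same family, read 712, 654, 607, 913 and 852 CPM in control males and 577, 596 and 650 in LKO males. Here 4 of 6 LKO livers lay below every control, at 81.1% of control (interval 68.9 to 95.5%; edgeR adjusted p = 0.306). The Apoc2 reading was 66.3% of control with an interval from 42.4 to 103.6% (edgeR adjusted p = 0.442).

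Apoe showed the smallest departure. Its control males stood at 53660, 52020, 44866, 56732 and 62902 CPM, and its LKO males at 45822, 50056 and 56766 (lowest, median, highest). The ranges overlap over most of their width, with the LKO level at 93.8% of control and an interval of 78.5 to 112.1% (edgeR adjusted p = 0.810). Apoh stood at 82.9% of control (interval 67.7 to 101.6%; edgeR adjusted p = 0.442).

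**Figure D2:**
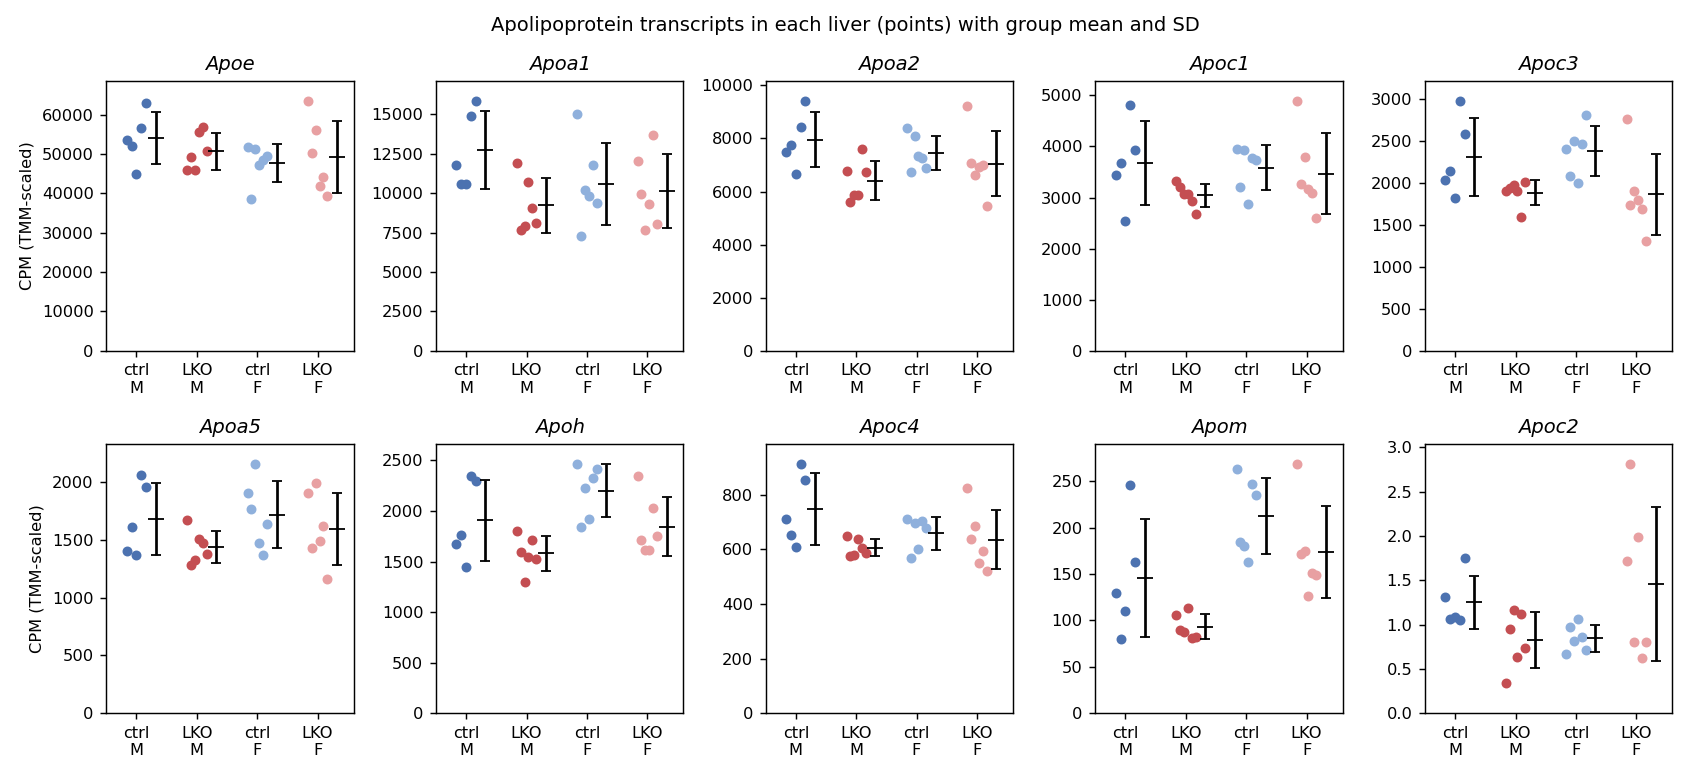
TMM-scaled CPM of each member in each liver (points, in replicate order), with the group mean and SD (black) beside them; panels have their own axes from 0. In males the LKO points of most members sit low in the control range or below it, as for Apoc4 at 577 to 650 CPM against 607 to 913.

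Scatter between control males was wide and was shared by the members. Replicate 4 was highest of the 5 for Apoc1, Apoc3, Apoc4, Apoa5, Apoh and Apom, replicate 6 for Apoe, Apoa1, Apoa2 and Apoc2, and replicate 3 was lowest for Apoe, Apoa1, Apoa2, Apoa5, Apoc1, Apoc3, Apoc4 and Apoh. The coefficient of variation of Apoc4 was 17.5% in control males and 5.12% in LKO males, that of Apoc1 22.3% and 7.32%, and that of Apom 43.7% and 14.3%. Estimates stayed below 0 for all 10 members when replicate 4 was left out, with a median of -0.20 and 4 at an unadjusted p under 0.05, against 11.5% of all genes in either direction. Without replicate 6 the median was -0.25 and 3 members were at an unadjusted p under 0.05, against 8.45% of all genes. Without replicate 3 the median was -0.36 with 8 members, against 13.99% of all genes. With library size alone in place of TMM, the median was -0.23 and all 10 stayed below 0.

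Other abundant transcripts were counted in the same way. Of the 100 genes with the highest mean level in the male comparison, 7 were members, and 60 of the other 93 had estimates below 0, 64.5%, with a median of -0.05. The 8 hepatocyte markers had a median log2 fold change of -0.16 in males, with 5 below 0 and none called. Their summed level was 62850 to 84136 CPM in control males and 60264 to 79784 in LKO males. Of 5 erythroid markers all lay below 0 in males (median -0.54), 2 of 12 macrophage markers (median 0.27) and 2 of 8 endothelial markers (median 0.11), with none called. So did 4 of 6 cholangiocyte (median -0.25), 2 of 2 neutrophil (median -0.74) and 1 of 2 adipocyte markers tested (median -0.56). Stellate cell markers had 3 of 8 below 0 (median 0.09), lymphocyte markers 3 of 7 (median 0.09), and the 1 enterocyte marker tested read -0.07. None of these was called. The part of these differences in the members' values was not tested.

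In females no member was called either, against 1.42% of 13684 genes tested (edgeR quasi-likelihood test). Estimates lay below 0 for 8 of 10 (8 of 9 without Apoc2), against 48.9% of all genes, and the median was -0.07 against 0.01 over all genes. In the direction of lower LKO values, 2 members had an unadjusted p under 0.05, Apoc3 and Apoh, against 7.33% of all genes, and Apoc2 had one in the other direction, against 8.31%. No member had groups that did not overlap, against 0.548% of all genes lower and 1.05% higher.

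Apoc3 stood at 1995, 2428 and 2808 CPM (lowest, median, highest) in control females and at 1302, 1761 and 2755 in LKO females. In 5 of 6 LKO females it was below every control, and LKO replicate 1, at 2755, was near the top of the control range. The LKO level was 78.4% of control (interval 62.8 to 97.8%), or -0.35 on the log2 scale (SE 0.15; edgeR adjusted p = 0.275). Without LKO replicate 1 it was -0.49 (edgeR adjusted p = 0.0505). Apoh stood at 1838, 2275 and 2466 CPM in control females and at 1614, 1732 and 2344 in LKO females, 84.0% of control (interval 70.9 to 99.5%; edgeR adjusted p = 0.304). Here 4 of 6 LKO livers lay below every control. Apom read 163, 210.0 and 263 CPM in control females and 126, 161 and 269 in LKO females, 81.8% of control (interval 63.7 to 104.9%; edgeR adjusted p = 0.439). The highest of the 12 female livers was LKO replicate 1, and 3 of 6 LKO livers lay below every control.

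The other members had estimates nearer 0 in females, apart from Apoc2. Apoa1 stood at 7274, 10032 and 15012 CPM in control females and at 7667, 9633 and 13723 in LKO females, 95.6% of control with an interval of 73.3 to 124.6%. Apoa2 stood at 94.6% (interval 79.3 to 112.9%) and Apoc4 at 96.4% (interval 81.9 to 113.4%). Apoc1 was at 96.8% (interval 78.6 to 119.3%) and Apoa5 at 92.9% (interval 75.4 to 114.4%). Apoe read 38634, 48958 and 51803 CPM in control females and 39447, 47185 and 63467 in LKO females, 103.0% of control (interval 83.8 to 126.7%; edgeR adjusted p = 0.923). The Apoc2 reading was 171% of control (interval 102 to 289%; edgeR adjusted p = 0.304) and rested on LKO females 1, 2 and 4, at 1.72, 2.82 and 1.99 CPM, while the other 3 lay between 0.624 and 0.810, by the controls' 0.667 to 1.06.

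LKO female replicate 1 was the highest of its group for Apoe, Apoa2, Apoc1, Apoc3, Apoc4, Apoh and Apom, and replicate 6 the lowest for Apoe, Apoa2, Apoa5, Apoc1, Apoc3 and Apoc4. The number of members below 0 was 7 to 9 when each female liver was left out in turn. Of the 93 other genes among the 100 most abundant, 55.9% lay below 0, with a median of -0.04, and of the 192 others among the top 200, 60.9%, with a median of -0.06. Beside these values, 7 of 8 hepatocyte markers lay below 0 in females, with a median of -0.30 and none called. Their summed level was 89639 to 104269 CPM in controls and 69644 to 97122 in LKO females. All 5 erythroid (median 0.50), all 8 stellate cell (median 0.29) and all 6 tested lymphocyte markers (median 0.56) lay above 0, with none called. Of the markers tested, 2 of 12 macrophage, 1 of 6 cholangiocyte and 1 of 2 adipocyte markers were called higher, against 1.42% of all genes called. Only 2 of the 5 adipocyte markers were tested. None of the cholangiocyte (median 0.41), adipocyte (median 1.77) and neutrophil markers tested (median 0.18) lay below 0, nor did the 1 enterocyte marker tested (0.54). The macrophage list did not move as a whole, with 6 of 12 below 0 and a median of 0.01. Of 8 endothelial markers 6 lay below 0 (median -0.12), with none called. The part of these in the members' values was not tested.

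**Figure D3:**
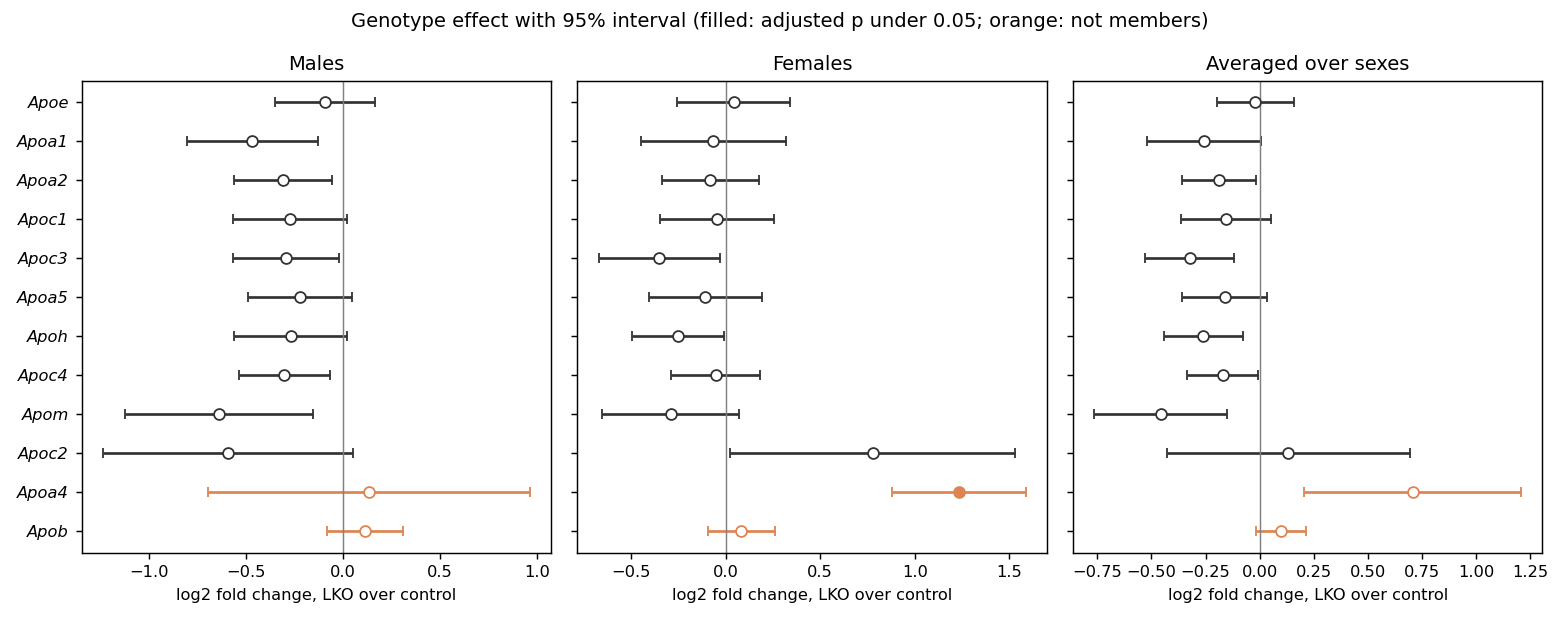
Log2 fold change of LKO over control (x axis) with its 95% interval for the 10 members and, in orange, Apoa4 and Apob; filled points passed an adjusted p of 0.05. All member points are open; those of males lie to the left of 0, and the single filled point is Apoa4 in females at 1.23.

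Averaged over the sexes in 1 fit of 23 livers, with sex as a covariate, no member was called against 0.365% of 14503 genes. Estimates lay below 0 for 9 of 10, against 47.8% of all genes, and 5 were lower at an unadjusted p under 0.05, against 6.78%. Apoc3 had the lowest p among the members, at 79.9% of control (interval 69.4 to 92.1%; log2 fold change -0.32, SE 0.10; edgeR adjusted p = 0.138). Apom stood at 72.9% (interval 58.9 to 90.2%; edgeR adjusted p = 0.169) and Apoh at 83.5% (interval 73.7 to 94.7%; edgeR adjusted p = 0.182). Apoa2 stood at 87.8% (interval 77.9 to 98.9%) and Apoc4 at 88.8% (interval 79.2 to 99.6%). Apoe stood at 98.6%, with an interval of 87.1 to 111.6%. The call on Apoc3 turned on 1 liver: without LKO female replicate 1 its log2 fold change was -0.40 and it was called (edgeR adjusted p = 0.0315), along with 143 genes in all in place of 53. Without control male replicate 4, 3 members were at an unadjusted p under 0.05, against 11.7% of all genes in either direction.

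The male and female effects were compared directly through the genotype by sex interaction, in which 0 of 14503 genes were called by edgeR, 1874 had an unadjusted p under 0.05 and DESeq2 called 96, none of them a member. It lay below 0 for 1 of 10 members, against 49% of all genes, and above 0 (less negative or more positive in females) for the other 9, with a median of 0.23. Apoa1 had a difference of 0.40 on the log2 scale (interval -0.11 to 0.91; edgeR adjusted p = 0.509). Apoc2 had 1.37 (interval 0.39 to 2.36; edgeR adjusted p = 0.262), with the counting doubt given above. Apoc3 had -0.06 (interval -0.47 to 0.36) and Apoh 0.02 (interval -0.35 to 0.39). No member was thus shown to differ in effect between the sexes. In the authors' deposited table, which holds each sex alone, no member had an adjusted p under 0.05 either.

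Control females were set against control males. No member was called, while 18% of 13699 genes were, and no member had groups that did not overlap, which 5.17% of genes showed with females lower and 5.13% with females higher. Each table holds 1 sex, and sex and table cannot be told apart. Estimates lay below 0 for 6 of 10, against 49.5% of all genes. Apom was the member furthest above 0, with joint-scaled means of 215 ± 40.9 CPM in control females (SD, n = 6) and 144 ± 63.6 in control males (SD, n = 5), 149% of the male level (interval 105 to 213%; edgeR adjusted p = 0.109). Every female lay above the male mean, and without control male replicate 4 it was called, at a log2 difference of 0.85 (edgeR adjusted p = 0.00757). Apoh stood at 118% of the male level (interval 95.8 to 145.7%) and Apoe at 90.6% (interval 74.4 to 110.2%). The other members lay between 85.1% for Apoa1 and 105% for Apoc3, apart from the Apoc2 reading at 69.2%.

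Within a group, the members varied together from liver to liver. Correlations were computed for all 45 pairs over 23 livers on log2(CPM + 1) after subtracting group means, with permutation p-values (100000 resamples within groups, two-sided) adjusted over the 45 pairs. The median Pearson r was 0.63, and 30 pairs had an adjusted p under 0.05. Correlations between other genes are not given, and whether the members vary together more than other abundant transcripts was not tested. All 36 pairs without Apoc2 were positive, from 0.40 to 0.89, and none of the 9 pairs with Apoc2 passed. Apoc1 and Apoc4, neighbours on chromosome 7, had the highest r of 0.89 (rho 0.88; permutation adjusted p = 0.00045 and 0.00075; raw p for r the smallest that these resamples can give), which was 0.84 without the 2 livers farthest from the median. It was 0.84 within males and 0.94 within females.

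High correlations joined members of different loci as well as neighbours. Apoc3, on chromosome 9, had r = 0.88 with Apoc1 on chromosome 7 (rho 0.76; permutation adjusted p = 0.00045 and 0.00315; 0.82 without the 2 farthest livers) but r = 0.40 with its cluster neighbour Apoa1 (rho 0.30; permutation adjusted p = 0.110 and 0.259; 0.52 without the 2 farthest). Apoc4 and Apom, on different chromosomes, had r = 0.85 (rho 0.82; permutation adjusted p = 0.000675 and 0.00075; 0.75 without the 2 farthest). Apoa1 paired best with Apoh, at r = 0.75 (rho 0.75; permutation adjusted p = 0.00105 and 0.00225; 0.75 without the 2 farthest). Without Apoc2, the median r was 0.67 over the 6 pairs of the same cluster and 0.66 over the 30 pairs of different loci. Within males the median r over all pairs was 0.66 and within females 0.60. The livers share library preparation and scaling, and the scaling matters: with library size alone in place of TMM factors, the median r was 0.41 and 7 pairs passed.

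**Figure D4:**
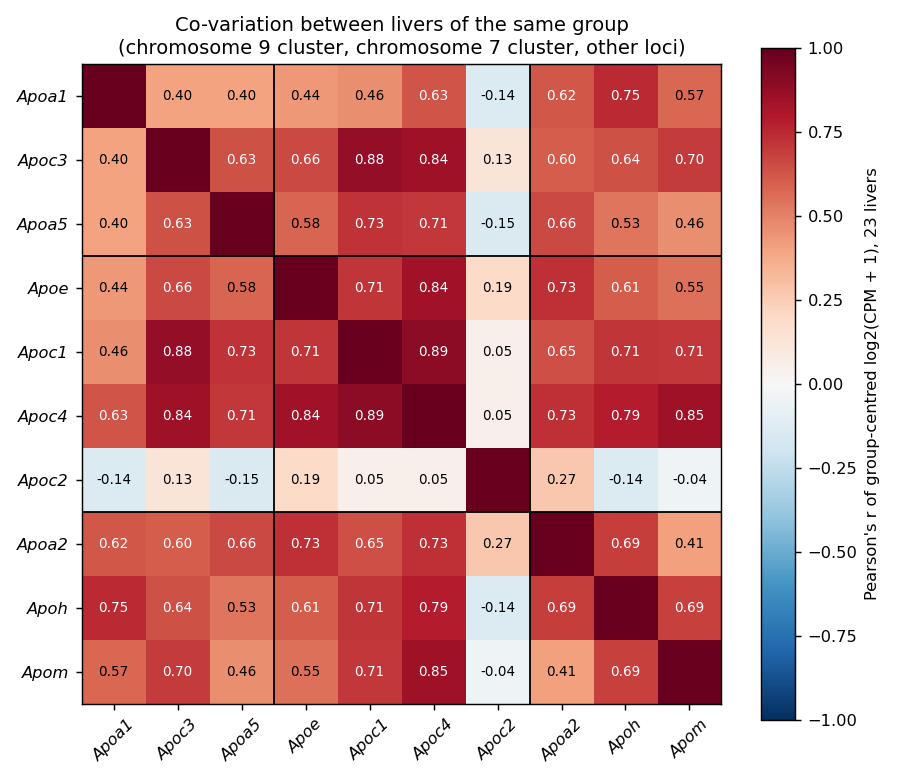
Pearson's r between members over 23 livers after subtraction of group means, with black lines parting the chromosome 9 cluster, the chromosome 7 cluster and the other loci. Red fills the matrix outside the Apoc2 row and column, with the highest value, 0.89, for Apoc1 and Apoc4.

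Because the members varied together, their upstream sequences were looked at for letters they might share. RefSeq promoter entries (GRCm38.p6) existed for 8 of 10, and the 250 bases before each start were searched on both strands. The 150 bases before the start are shown 5′ to 3′ on the gene's strand for Apoe and Apoa2, the most abundant members, and for Apoa5, an activator of triglyceride clearance with 2 matches; their RefSeq and GENCODE starts coincide. Capitals mark motif matches, and coordinates are those of GRCm38.p6, not of the tables.
Apoe, minus strand, chr7:19699189-19699338: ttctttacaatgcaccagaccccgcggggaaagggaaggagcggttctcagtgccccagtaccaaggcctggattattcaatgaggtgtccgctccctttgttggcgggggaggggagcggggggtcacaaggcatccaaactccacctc
Apoa2, plus strand, chr1:171224904-171225053: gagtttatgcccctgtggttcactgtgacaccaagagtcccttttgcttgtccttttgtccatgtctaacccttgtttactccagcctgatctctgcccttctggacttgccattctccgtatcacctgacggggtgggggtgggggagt
Apoa5, plus strand, chr9:46268483-46268632: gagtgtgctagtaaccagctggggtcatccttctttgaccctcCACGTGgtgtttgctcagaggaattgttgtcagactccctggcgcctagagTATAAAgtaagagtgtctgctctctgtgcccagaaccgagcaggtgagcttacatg
The Apoa5 stretch holds a TATA box (TATAAA) from -56 to -51 and an E-box (CACGTG) from -107 to -102, counted back from the start. TATAAA occurred in 12.4% of 32851 promoter windows of the same length and CACGTG in 6.02%. The Apoe and Apoa2 stretches hold no match to any of the 8 motifs searched, though Apoa2 has TATAAA further out, from -212 to -207. The nuclear receptor half-site AGGTCA was found before Apoc2, Apoc4 and Apoh, and in 14.02% of all windows. The RefSeq start used for Apoh lies 51943 bases inside the gene as GENCODE M21 draws it. Those used for Apom, Apoa1 and Apoc4 lie 249, 50 and 19 bases inside theirs. For these genes part or all of the window searched lies within the gene as drawn. The HNF1 half-site GTTAAT was found before Apoc2 and in 6.43% of windows, and CAAAGTCCA (0.384%), TTGCNNAA (9.56%), TTCNNNGAA (7.02%) and TGACGT (6.47%) were found before none of the 8. No motif was found before more than 3 of the 8, and no matches overlapped, and a match to these letters is a description, not a bound site.

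Within the chromosome 9 cluster, 1 gene was called in females: Apoa4, which lies between Apoc3 and Apoa5 (chr9:46151994-46154757, plus strand) and encodes an apolipoprotein of liver and intestine. In control females Apoa4 stood at 269, 463 and 531 CPM (lowest, median, highest) and in LKO females at 728, 1069 and 1299. All 6 LKO livers were above every control, with or 1.23 on the log2 scale (SE 0.17; edgeR adjusted p = 0.0029), while Apoa1, Apoc3 and Apoa5 to either side had -0.07, -0.35 and -0.11. In males Apoa4 read 2086, 1628, 2965, 460.5 and 1944 CPM in controls and 889, 2055 and 3050 in LKO livers, a log2 fold change of 0.13 (edgeR adjusted p = 0.929), and -0.11 without control male replicate 4, the control at 460.5. Its interaction was 1.10 (edgeR adjusted p = 0.306), so the sexes were not shown to differ. In a fit of all 23 livers the female value kept its size and lost its call (edgeR adjusted p = 0.0575). Control females stood below control males for Apoa4, at 25.0% of their level (edgeR adjusted p = 0.00182).

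The 3 nearest tested protein-coding genes on either side of each cluster were Sik3, Pafah1b2 and Sidt2, then Zpr1, Bud13 and Cadm1 for chromosome 9, and Clptm1, Relb and Clasrp, then Tomm40, Nectin2 and Bcam for chromosome 7. Not all of them are close: from the start of the chromosome 9 cluster, the midpoint of Cadm1 lies at 1466 kb, Pafah1b2 at -241 kb and Sidt2 at -282 kb. Their mean levels in control males ran from 5.84 CPM for Bud13 to 146 CPM for Sidt2. None of the 12 was called between LKO and control in either sex. In males their log2 fold changes lay between -0.16 for Nectin2 and 0.13 for Zpr1, closer to 0 than those of 9 members. In females the estimate furthest from 0 was that of Nectin2, 0.59 (SE 0.15; edgeR adjusted p = 0.0701).

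**Figure D5:**
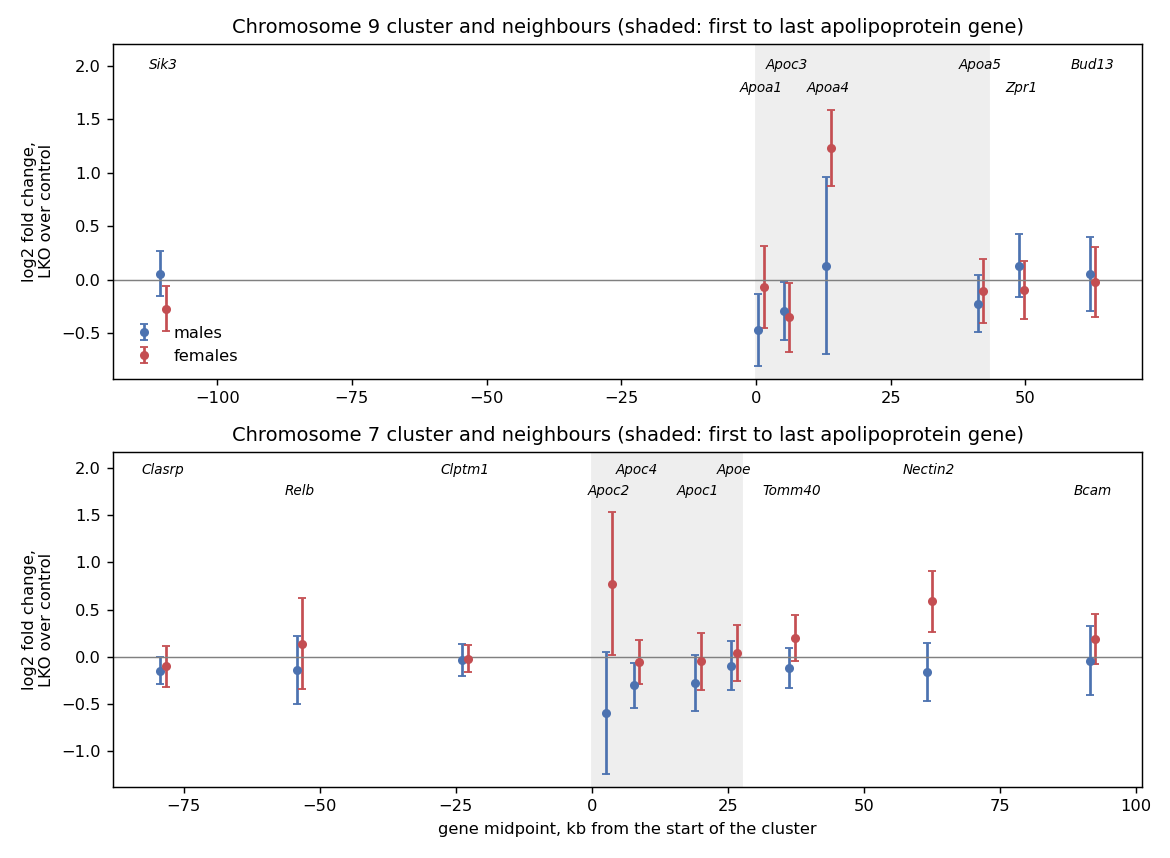
Log2 fold change of LKO over control with its 95% interval (y axis) against distance of each gene's midpoint from the start of its cluster in kb, for males (blue) and females (red); shading runs from the first to the last apolipoprotein gene, and neighbours beyond 120 kb are not drawn. Apoa4 in females, at 1.23, sits apart from the genes to either side.

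Apob, whose product is the non-exchangeable scaffold of very low density lipoprotein (VLDL), was measured beside the members. It stood at 2321 to 2764 CPM in control males and 2456 to 3009 in LKO males, a log2 fold change of 0.11 (edgeR adjusted p = 0.659). In females it was at 0.08 (edgeR adjusted p = 0.690). In males its estimate lay above 0 where those of all 10 members lay below, but its interval of -0.08 to 0.31 held 0. Apoa4, also not a member, lay above 0 in males too, at 0.13.

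Genes around the members were followed in 5 lists. In females 3 of 96 list genes tested were called, 3.125%, against 1.42% of all genes. In males 0 of 97 were called, against 0.00724%. Of 36 transcriptional regulators of apolipoprotein genes, none was called between LKO and control in males, in females or averaged over sexes, and their median log2 fold changes were -0.03, -0.12 and -0.09. Nr2f6, a nuclear receptor that represses apolipoprotein promoters, had the lowest p in males at -0.26 (edgeR adjusted p = 0.266), and Prox1, a corepressor of hepatocyte nuclear receptors, in females at 0.39 (edgeR adjusted p = 0.0826). Of 16 lipases, LCAT, transfer and efflux proteins, none was called in males. In females 1 was called: Lpl, lipoprotein lipase, the enzyme that Apoc2 activates and Apoc3 restrains, at 18.5 to 46.1 CPM in controls and 59.9 to 73.3 in LKO livers, which is 1.03 on the log2 scale (SE 0.18; edgeR adjusted p = 0.0134). Averaged over sexes Lpl was called at 0.78 (edgeR adjusted p = 0.0403), a call that was lost in 18 alternative settings. In males its value was 0.51 (edgeR adjusted p = 0.453), and the interaction was 0.51 (adjusted p = 0.543). Angptl8, a lipase inhibitor, had the lowest p of this list in males, at -0.77 (edgeR adjusted p = 0.382).

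Of 18 receptors and their regulators, 16 were tested in males with none called and 15 in females with 1 called, Trem2, a myeloid receptor that binds apolipoproteins. It read 2.43 to 4.20 CPM in control females and 5.52 to 10.3 in LKO females, which is 1.32 on the log2 scale (SE 0.18; edgeR adjusted p = 0.00314), which was not called in the fit of all 23 livers (adjusted p = 0.167). Stab1, a scavenger receptor, had the lowest p in males at 0.16 (edgeR adjusted p = 0.414). Of 13 VLDL assembly and export genes tested none was called in either sex. Pla2g12b, needed for VLDL lipidation, had the lowest p in males at -0.31 (edgeR adjusted p = 0.274), and Apobec1, the deaminase that edits Apob mRNA, in females at 0.44 (edgeR adjusted p = 0.0588). Of 16 other apolipoproteins and lipoprotein-borne proteins tested, Apoa4 was the 1 called in females, and Pcyox1, a lipoprotein-borne oxidase, had the lowest p in males at 0.27 (edgeR adjusted p = 0.313). The median of that list was -0.08 in males and 0.08 in females.

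Between control females and control males 25 of 96 list genes tested were called, 26.0%, against 18% of all genes, and many of these calls were lost when 1 liver was left out. Among the regulators 7 of 36 were higher in females, among them Esr1, the estrogen receptor, at 1.82 (edgeR adjusted p = 0.000267), and Ppargc1a, Foxo1, Prox1, Nr5a2 and Hnf4a at 0.43 to 1.09. Among the receptors Vldlr, Sorl1, Sdc1 and Stab2 were higher, at 0.39 to 1.47. Bmp1 and Lipc were higher and Lmf1 lower among the lipase genes, and Tm6sf2 and Mia3 higher and Pla2g12b and Cideb lower among the VLDL genes, with Tm6sf2 at 1.07 (edgeR adjusted p = 2.7e-05). Of the lipoprotein-borne proteins Pon1 and Apol7a were higher and Apoa4, Saa1, Saa2 and Clu lower, with Saa1 at -1.24 and Saa2 at -1.34.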

How the data were processed

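Bulk liver RNA from 23 livers in 4 groups of sex and genotype was analysed from 2 deposited tables; the male one lists 24434 genes and the female one 24940, with 22852 shared. The authors deposited raw counts per gene, FPKM values, size-factor-normalized counts (signal), and their own log2 fold changes and p-values, cited once. The submitters' processing notes name HISAT2 2.0.5 and mm39; the counter, annotation release and strand setting are not given in the sources used here. No sample column was left unmapped. FPKM values are as deposited and served only to order levels.

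The counts were tested with edgeR 4.0.16 (filterByExpr, TMM, quasi-likelihood test) in R 4.3.3, and p-values were adjusted by Benjamini-Hochberg across every gene of a fit. The LKO effect was fitted in each sex alone, then over all 23 livers with sex as a covariate and with the interaction, and control sexes were compared over genes in both tables. Other settings tried were library size alone, RLE factors, no filter or at least 10 counts in every sample, DESeq2 1.42.0, limma-trend (limma 3.58.1) on log2(FPKM + 1), a fit of all 23 livers, a replicate block, and each liver left out. The fits and the correlation test were checked on simulated data. CPM is scaled by TMM factors. Beyond the 10 members, the genes named are Cpt1a, Apoa4, Apob, the 3 nearest tested protein-coding genes beside each cluster and, in each of 5 lists, those called in a comparison and those with the lowest p in males, females or the average. A few genes of the lists are counted but not reported here by name. Depth was 14224665 to 19626662 counts per liver. The members and lists were chosen with earlier results of these data known, so no pattern here is independent support for those results.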

Additional observations from a re-analysis of the deposited data

Results flagged for a closer look

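In 44 groups of 5 or 6 livers (the CPM of each of 10 members and their summed share of counts, in each of 4 groups), Dixon's test at the 95% level marked 3 values as far from the rest of their group, and chance marks about 1 in 20. Apoc3 in LKO male replicate 5 was lowest at 1592 CPM, with the nearest liver at 1896. Apoe in control female replicate 2 was lowest at 38634 CPM, with the nearest at 47102. Apom in LKO female replicate 1 was highest at 269 CPM, with the nearest at 174.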

How the results depend on the processing

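The number of genes called moved with the processing, and the cause was not tested. In males it was 1 of all genes, and 2 with library size alone, 2 with no filter, 3 with at least 10 counts in every sample, 112 with DESeq2, 5 in the fit of all 23 livers and 1 to 2 with a liver left out. In females it was 194, and 559 with DESeq2, 94 in the fit of all 23 livers and 87 to 233 with a liver left out. Averaged over sexes it was 53, and 268 with DESeq2 and 13 to 143 with a liver left out. For the interaction it was 0, and 96 with DESeq2 and 0 to 17 with a liver left out. With the replicate number as a block the counts were 2 in males, 334 in females and 23 averaged, with no member called. Deviations of same-numbered livers had r from -0.393 to 0.423 in males, over 0.1 in 1 of 5 pairs, and from -0.00677 to 0.201 in females, over 0.1 in 5 of 6. Control livers correlated best with the LKO liver of their own number in 1 of 5 male and 4 of 6 female pairs, a hint from the data only; the labels tie a number to nothing shared, and the livers were not treated as paired.

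Members called were 0 to 1 averaged over sexes (Apoc3 without LKO female replicate 1) and 0 to 1 between control sexes (Apom without control male replicate 4) with a liver left out. Members with an interaction below 0 numbered 1, and 2 with library size alone, 2 with limma on FPKM and 0 to 2 with a liver left out. Correlated pairs numbered 30, and 7 with library size alone, 12 within males, 14 within females and 23 to 33 with a liver left out.

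Signs turned only for values near 0. Averaged, Apoe went to 0.029 with library size alone. The Apoh interaction went to -0.014 with library size alone and -0.0048 with limma on FPKM, and that of Apob to 0.012 with the block. Between sexes Apoc1 went to 0.0011 with no filter and 0.0089 with limma on FPKM. With a liver left out, the ranges were -0.17 to 0.062 for Apoa1, -0.16 to 0.023 for Apoc1 and -0.036 to 0.10 for Apoe in females, and -0.11 to 0.39 for Apoa4 in males. Averaged they were -0.053 to 0.25 for Apoc2 and -0.069 to 0.0099 for Apoe. For the interaction they were -0.084 to 0.010 for Apob, -0.20 to 0.025 for Apoc3 and -0.076 to 0.10 for Apoh. Between sexes they were -0.12 to 0.011 for Apoa2, -0.00795 to 0.15 for Apoa5, -0.039 to 0.039 for Apob, -0.12 to 0.11 for Apoc1 and -0.0062 to 0.18 for Apoc3. Of 2207 alternative values for named genes, 2063 kept direction and side of the threshold. The Apoc2 reading rests on 5 to 48 counts per liver.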
